A study of Homo sapiens with 12 samples.

Results

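The genes that make, elongate and desaturate fatty acids were examined in H295R, an established human adrenocortical carcinoma line that produces steroid hormones. The set held 10 genes, picked by symbol out of 60670 in the count table: the elongases ELOVL1, ELOVL2, ELOVL4, ELOVL5, ELOVL6 and ELOVL7, the desaturases FADS1, FADS2 and SCD, and fatty acid synthase (FASN). All 10 were present and all 10 passed the filter on low counts that left 15916 genes for testing. Total RNA had been sequenced as strand-specific paired-end libraries from H295R cells over-expressing DLK1 (OE), H295R cells with DLK1 knocked down (KD) and unmodified H295R cells (WT), with 4 libraries in each group. DLK1 encodes a membrane protein of the Notch ligand family. The study set out to compare transcriptomes of this line at different amounts of DLK1. How the knock-down and the over-expression were made, and whether each line is a single clone, is not given in the sources used here, and WT is the only control. The labels do not say that libraries of a group came from separate cultures, so p-values measure the spread between these libraries, which may be technical.

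The libraries held 9303266 to 13797397 counts in genes. DLK1 averaged 3213 ± 148 CPM in OE, 1338 ± 113 CPM in KD and 2675 ± 132 CPM in WT (SD, n = 4 each), so its order followed the labels. CPM here is a count scaled to a common library size after TMM adjustment. All 7 adrenocortical markers averaged at least 1 CPM in every group, and their summed level was 1396 to 1528 CPM in OE, 1173 to 1398 CPM in KD and 1456 to 1556 CPM in WT. No adipocyte, endothelial, immune or hepatocyte marker averaged 1 CPM in any group. ADIPOQ, CDH5, CD3E, LST1 and TYROBP were at 0 in all 12 libraries, while PLIN1 (40 counts over all libraries) and PECAM1 (18) led the adipocyte and endothelial lists. Of 7 fibroblast markers, COL1A1 averaged 17.7 CPM in OE, 17.4 in KD and 17.98 in WT, and COL3A1 0.527, 2.18 and 1.09 CPM in that order, with COL1A2 at 0 throughout. The summed fibroblast level was 16.9 to 19.8 CPM in OE, 15.7 to 22.8 CPM in KD and 17.5 to 22.001 CPM in WT. Of 6 chromaffin and neuroendocrine markers, CHGA averaged 2.23 CPM in OE, 3.86 in KD and 3.08 in WT, and TH, DBH and PHOX2A were at 0 throughout. The part of these markers in the results was not tested. KD replicate 3 stood apart from the other KD libraries: its pairs had a chi-square per degree of freedom of 6.16 to 10.9, against 3.81 to 4.22 for the other KD pairs, and 4.99% of its counts came from the mitochondrial genome, against 6.65% to 7.49% in the other KD libraries. For the calls named below that rest on KD, it is therefore also said which were lost without it.

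Fatty acid synthase builds palmitate from acetyl and malonyl units, and the elongases carry out the first, rate-limiting step that lengthens fatty acids at the endoplasmic reticulum, each with its own preferred chains. Desaturases introduce double bonds: SCD makes monounsaturated fatty acids, and FADS2 and FADS1 work in turn on the essential polyunsaturated ones. ELOVL5 and ELOVL2 alternate with these desaturases on the route to arachidonic and docosahexaenoic acid, and steroid-producing cells store polyunsaturated fatty acids in the cholesteryl esters that feed hormone synthesis.

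RefSeq promoter windows (GRCh38.p14, 250 bases before and 50 bases after the annotated start) were matched for 9 of the 10 genes. FASN had no window. Only the first listed window of each gene was used, so other annotated starts were not searched. The window of FADS1 lies inside the annotated span of that gene (61799625 to 61829318), and those of FADS2 and ELOVL6 lie inside theirs. For the other genes the 250 bases before the start overlap the edge of the annotated span, in SCD from 100347124 on. The 250 bases before the start are printed for the 3 genes whose transcripts differed between OE and WT: ELOVL2 (chr6:11044306-11044555, minus strand), FADS1 (chr11:61817004-61817253, minus strand) and SCD (chr10:100346983-100347232, plus strand). They run 5′ to 3′ on the strand of the gene. Capitals mark matches, on either strand, to any of 5 motifs: the sterol regulatory element core TCACNCCAC, the E-box CACGTG, the NF-Y box CCAAT, the GC box GGGCGG and the NR5A1-type site CAAGGTCA. NR5A1 is the transcription factor that defines steroid-producing cells.
ELOVL2: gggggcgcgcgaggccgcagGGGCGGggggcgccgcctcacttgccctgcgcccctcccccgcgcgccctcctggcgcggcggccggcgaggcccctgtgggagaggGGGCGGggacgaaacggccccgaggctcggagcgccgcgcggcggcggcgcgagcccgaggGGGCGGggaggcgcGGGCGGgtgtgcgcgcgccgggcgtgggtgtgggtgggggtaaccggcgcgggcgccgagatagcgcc
FADS1: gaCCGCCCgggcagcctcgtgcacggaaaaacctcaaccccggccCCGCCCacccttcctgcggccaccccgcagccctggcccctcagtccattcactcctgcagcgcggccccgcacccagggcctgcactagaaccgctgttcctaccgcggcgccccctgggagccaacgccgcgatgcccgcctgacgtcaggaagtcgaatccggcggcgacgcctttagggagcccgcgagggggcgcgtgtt
SCD: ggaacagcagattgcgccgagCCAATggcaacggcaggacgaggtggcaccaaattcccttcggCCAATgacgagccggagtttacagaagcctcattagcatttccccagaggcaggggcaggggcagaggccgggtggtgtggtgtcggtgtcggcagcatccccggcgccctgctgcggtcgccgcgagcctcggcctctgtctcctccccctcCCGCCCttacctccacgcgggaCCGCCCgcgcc

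The stretch before ELOVL2 was 84.8% G and C, a higher share than in 99.5% of the 35116 windows of the table, whose median was 58.0%. It held 4 GC boxes and no other match. The stretch before FADS1 was 72.4% G and C with 2 GC boxes, and that before SCD 68.0% with 2 NF-Y boxes and 2 GC boxes. Over the full 300-base windows, the GC box was found in 7 of the 9 genes and in 44.954% of all promoters, and the NF-Y box in 4 of 9 (ELOVL1, ELOVL4, ELOVL5 and SCD) and in 34.614% of all. The E-box was found in 2 of 9 (ELOVL4 and ELOVL5) and in 7.256% of all. The letters of the sterol regulatory element core and of the NR5A1-type site were in none of the 9 windows, and in 1.128% and 1.281% of all promoters. These matches describe letters in fixed windows only.

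ELOVL2, which lengthens long polyunsaturated fatty acids on the way to docosahexaenoic acid, differed most among the 10 genes, and it was lower than WT in both engineered lines. The gene (ENSG00000197977) lies on chromosome 6 from 10980759 to 11044314, on the minus strand (GRCh38, GENCODE 29). Its raw counts in replicates 3, 4, 5 and 6 were 22, 26, 28 and 47 in OE. They were 14, 14, 16 and 14 in KD and 54, 59, 89 and 57 in WT. All KD libraries lay below all OE libraries, and all OE libraries below all WT libraries, with no overlap between any 2 groups.

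On the CPM scale ELOVL2 averaged 2.49 ± 0.616 in OE, 1.18 ± 0.0907 in KD and 6.10 ± 1.00 in WT (SD, n = 4 each). KD held 0.194 of the WT level (log2 fold change -2.36 ± 0.28 SE, edgeR quasi-likelihood test, adjusted p = 6.44e-09). By size it ranked 3 among the 1442 genes called in that comparison. In OE against WT it fell by 1.28 ± 0.25 on the log2 scale, to 0.412 of the WT level (edgeR, adjusted p = 0.000426), and ranked 35 among 796 called genes. The transcript was thus reduced both where DLK1 was low and where it was high. OE exceeded KD 2.12-fold (log2 1.08 ± 0.30, edgeR, adjusted p = 0.00773). The comparisons share libraries, and in these bulk samples fewer cells with the transcript and less transcript per cell cannot be told apart.

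Without KD replicate 3 the log2 fold change of ELOVL2 was -2.32 in KD against WT (edgeR, adjusted p = 3.30e-08) and 1.04 in OE against KD (edgeR, adjusted p = 0.0235). The call between OE and KD was lost without OE replicate 6, the highest OE library (log2 0.89, edgeR, adjusted p = 0.0626). Both comparisons with WT stayed called under all 21 alternatives. Among these, the filter at a minimum count of 50 kept ELOVL2 only through WT (54 to 89 counts a library), as OE and KD libraries held 14 to 47. That setting is therefore no separate support for a lower level in the engineered lines. ELOVL2 was a low transcript, and 22.59% of the tested genes had a lower mean CPM. It had 440 counts over all 12 libraries, against 4 for its antisense neighbour ELOVL2-AS1. The 5 tested genes on each side of ELOVL2 in order of start, with SYCP2L and SMIM13 next to it, spanned 10694695 to 13290484 on chromosome 6. These 10 genes included 0 called in each of the 3 comparisons by edgeR, by DESeq2 and by limma-voom. At an unadjusted p under 0.05 in edgeR there were 2 in OE against KD, 1 in OE against WT and 1 in KD against WT. Of all tested genes edgeR called 13.8%, 5.00% and 9.06% in that order, so 0 of 10 is near the background. The median log2 fold change of the 10 neighbours was -0.01 in OE against KD, -0.02 in OE against WT and 0.01 in KD against WT. Single neighbours ranged from -0.22 to 1.43, from -0.16 to 0.39 and from -1.25 to 0.17 in that order.

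**Figure D1:**
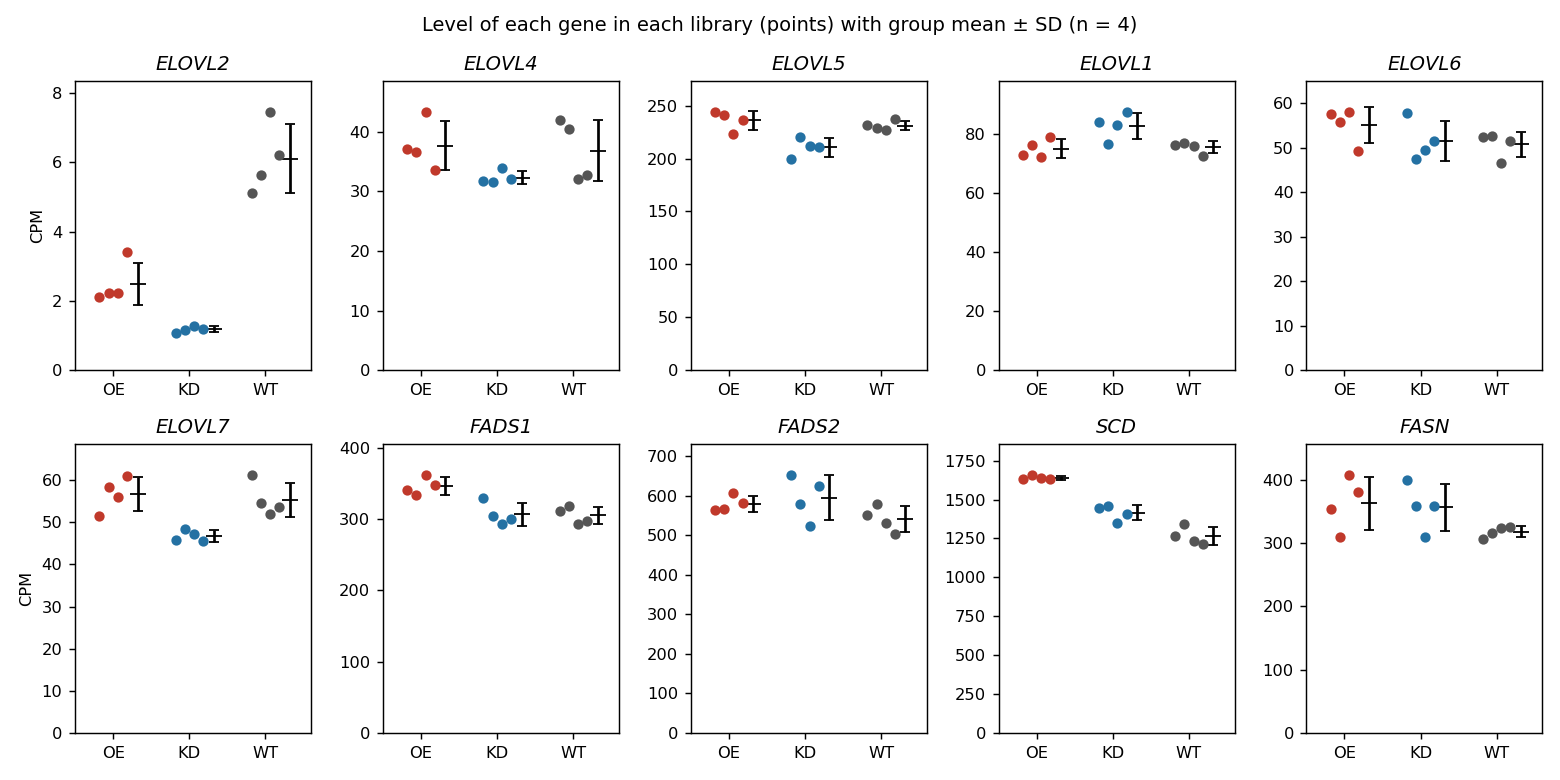
Level of each of the 10 genes (CPM, vertical axis from 0) in each library of OE, KD and WT; points are libraries, and bars show the group mean ± SD (n = 4). ELOVL2 separates all 3 groups, with OE libraries at 2.10 to 3.41 CPM, KD libraries at 1.06 to 1.28 CPM and WT libraries at 5.11 to 7.45 CPM, and SCD is highest in OE.

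ELOVL5, the elongase that acts before ELOVL2 on polyunsaturated chains, changed far less (ENSG00000012660, chromosome 6, 53267398 to 53349179, minus strand). It had 244, 241, 223 and 236 CPM in OE, 199, 221, 212 and 211 CPM in KD and 232, 229, 227 and 237 CPM in WT, in replicate order. KD libraries were the lowest and did not overlap OE or WT, whereas OE and WT overlapped. OE exceeded KD by 0.17 ± 0.04 on the log2 scale (edgeR, adjusted p = 0.00683), a call kept under all 21 alternatives. KD fell by 0.13 ± 0.04 against WT (edgeR, adjusted p = 0.0456), a call lost under 14 of the 21 alternatives and, without KD replicate 3, with an adjusted p of 0.144 in edgeR. OE differed from WT by 0.03 ± 0.04 (edgeR, adjusted p = 0.799).

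The count of ELOVL2 relative to ELOVL5 in the same library does not depend on scaling between libraries. It was 1.06% ± 0.264 in OE (range 0.860% to 1.44%), 0.560% ± 0.0348 in KD (0.532% to 0.604%) and 2.64% ± 0.462 in WT (2.20% to 3.29%; SD, n = 4 each). The 3 groups did not overlap in this ratio. ELOVL2 per exon length (RPKM) made up 0.467% ± 0.119 of the summed level of the 7 elongases, ELOVL3 included, in OE, 0.241% ± 0.0157 in KD and 1.18% ± 0.210 in WT. ELOVL5 held the largest share, 46.4% in OE, 45.0% in KD and 46.7% in WT.

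ELOVL7, which lengthens saturated long chains, followed ELOVL5 in direction (ENSG00000164181, chromosome 5, 60751791 to 60844389, minus strand). Its level was 51.5, 58.3, 56.1 and 60.9 CPM in OE, 45.8, 48.5, 47.2 and 45.5 CPM in KD and 61.3, 54.5, 52.0 and 53.5 CPM in WT. KD libraries again lay below every OE and WT library, and OE and WT overlapped. OE exceeded KD by 0.28 ± 0.07 on the log2 scale (edgeR, adjusted p = 0.0048), kept under all 21 alternatives. KD fell by 0.24 ± 0.07 against WT (edgeR, adjusted p = 0.0251), but this was not called without KD replicate 3 (adjusted p = 0.0508), KD replicate 6 (0.0771) or WT replicate 3 (0.149) in edgeR, or when library sizes alone were used for scaling (0.0545). OE against WT stood at 0.04 ± 0.07 (edgeR, adjusted p = 0.859).

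The other elongases were not called in any comparison. ELOVL4, known for ultra-long chains in retina and skin (ENSG00000118402, chromosome 6, 79914812 to 79947580, minus strand), averaged 37.7 ± 4.09 CPM in OE, 32.3 ± 1.13 CPM in KD and 36.8 ± 5.09 CPM in WT. ELOVL6, which turns palmitate into stearate (ENSG00000170522, chromosome 4, 110045846 to 110199199, minus strand), averaged 55.2 ± 4.06 CPM in OE, 51.6 ± 4.55 CPM in KD and 50.8 ± 2.84 CPM in WT. ELOVL1, which makes saturated and monounsaturated very long chains (ENSG00000066322, chromosome 1, 43363397 to 43368074, minus strand), averaged 74.95 ± 3.22 CPM in OE, 82.7 ± 4.48 CPM in KD and 75.5 ± 1.95 CPM in WT. Groups of each of these genes overlapped in every comparison. The log2 difference nearest to the threshold was that of ELOVL4 in OE against KD, at 0.22 ± 0.09 (edgeR, adjusted p = 0.103).

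SCD, the desaturase that makes oleate and palmitoleate, was the most abundant transcript of the set and the only one called higher in all 3 comparisons (ENSG00000099194, chromosome 10, 100347124 to 100364834, plus strand). It had 1630, 1660, 1641 and 1632 CPM in OE, 1445, 1457, 1352 and 1405 CPM in KD and 1267, 1345, 1237 and 1214 CPM in WT. Every OE library lay above every KD library, and every KD library above every WT library. In OE it rose 1.30-fold over WT (log2 0.37 ± 0.03, edgeR, adjusted p = 3.65e-12) and 0.21 ± 0.03 on the log2 scale over KD (edgeR, adjusted p = 3.66e-06). In KD it rose by 0.16 ± 0.03 over WT (edgeR, adjusted p = 0.000637), or 0.15 without KD replicate 3 (edgeR, adjusted p = 0.00142). All 3 calls were kept under the 21 alternatives. The pseudogene SCDP1 had 71 counts over all libraries, against 202736 for SCD. The 5 tested genes on each side of SCD in order of start, 10 in all, included 0 called in either comparison with WT by edgeR, DESeq2 or limma-voom. At an unadjusted p under 0.05 in edgeR there were 2 in OE against WT and 2 in KD against WT. In OE against KD 1 of these neighbours was called higher and 1 lower. Of all tested genes 13.8% were called there, beside 5.00% in OE against WT and 9.06% in KD against WT.

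FADS1 and FADS2, the delta-5 and delta-6 desaturases of polyunsaturated fatty acids, overlap on opposite strands. FADS1 (ENSG00000149485, chromosome 11, 61799625 to 61829318, minus strand) had 341, 333, 362 and 348 CPM in OE, 330, 304, 293 and 300 CPM in KD and 311, 318, 293 and 298 CPM in WT. All OE libraries were above all others, while KD and WT overlapped. OE exceeded WT by 0.18 ± 0.04 on the log2 scale (edgeR, adjusted p = 0.00392) and KD by 0.17 ± 0.04 (edgeR, adjusted p = 0.00261), and both calls were kept under all 21 alternatives. KD against WT stood at 0.01 ± 0.04 (edgeR, adjusted p = 0.945).

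FADS2 (ENSG00000134824, chromosome 11, 61792980 to 61867354, plus strand) had 564, 566, 606 and 581 CPM in OE, 653, 580, 522 and 624 CPM in KD and 552, 579, 531 and 502 CPM in WT. The 3 groups overlapped, and KD spread widest. None of its comparisons was called: the log2 difference was -0.04 ± 0.05 in OE against KD, 0.10 ± 0.05 in OE against WT and 0.14 ± 0.05 in KD against WT (edgeR, adjusted p = 0.727, 0.361 and 0.122). Without KD replicate 5, the lowest KD library, KD was called higher than WT at 0.19 (edgeR, adjusted p = 0.0014), and without KD replicate 3 it was not, at 0.09 (0.291). FADS2 per FADS1 count was 1.67 ± 0.0193 in OE, 1.94 ± 0.126 in KD and 1.77 ± 0.0625 in WT. KD libraries (1.78 to 2.08) lay above OE libraries (1.65 to 1.699), and WT libraries (1.69 to 1.82) overlapped both. The annotated span of FADS1 lies within that of FADS2, and FEN1 lies in FADS2 on the same strand. The strand setting of the counting is not given in the sources used here, so reads of FADS1 and FADS2 may not have been told apart fully.

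FASN, the enzyme that supplies palmitate to the others (ENSG00000169710, chromosome 17, 82078333 to 82098332, minus strand), had 354, 309, 408 and 381 CPM in OE, 400, 360, 309 and 359 CPM in KD and 307, 316, 323 and 326 CPM in WT. The WT libraries sat close together at the lower end, and both engineered groups overlapped them. The log2 difference was 0.03 ± 0.09 in OE against KD, 0.19 ± 0.09 in OE against WT and 0.17 ± 0.09 in KD against WT (edgeR, adjusted p = 0.907, 0.314 and 0.334), none called. SCD per FASN count was 4.57 ± 0.584 in OE, 3.99 ± 0.314 in KD and 3.98 ± 0.248 in WT, with overlap between all groups.

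**Figure D2:**
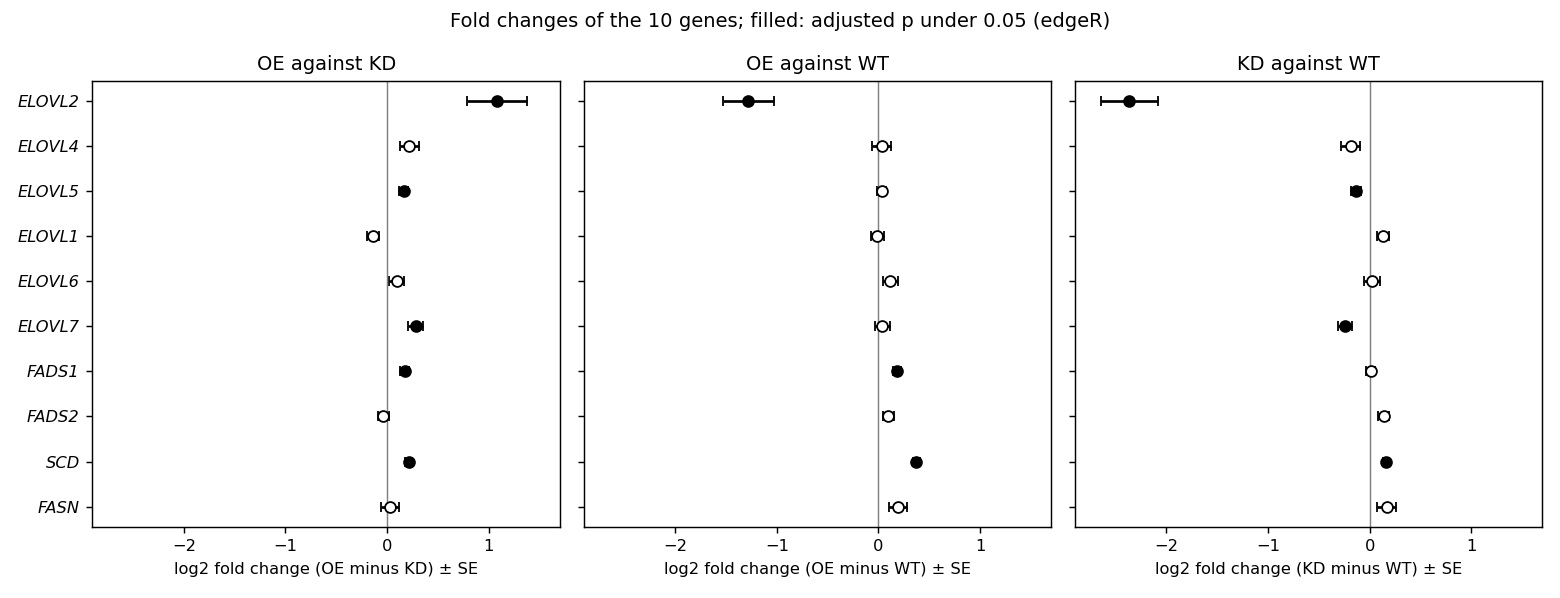
Log2 fold change of each of the 10 genes (horizontal axis) in OE against KD, OE against WT and KD against WT, with bars of 1 SE from edgeR; filled points had an adjusted p under 0.05. ELOVL2 lies at 1.08, -1.28 and -2.36, while all other genes lie within 0.4 of 0.

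In OE against KD, 5 of the 10 genes were called higher (ELOVL2, ELOVL5, ELOVL7, FADS1 and SCD) and 0 lower by edgeR, DESeq2 or limma-voom, and the median log2 fold change of the 10 was 0.17. At an unadjusted p under 0.05 in edgeR 1 was lower, ELOVL1. Among all tested genes 13.8% were called (7.27% higher and 6.55% lower), with a median of 0.00. In OE against WT, 3 of 10 were called, SCD and FADS1 higher and ELOVL2 lower, with a median of 0.07. The background there was 5.00% (2.13% higher and 2.87% lower), with a median of 0.00. In KD against WT, 4 of 10 were called, SCD higher and ELOVL2, ELOVL5 and ELOVL7 lower, with a median of 0.02. Here 9.06% of all genes were called (3.84% higher and 5.22% lower), with a median of 0.01. Without KD replicate 3 the counts were 5, 3 and 2 in the same order, and in KD against WT the 2 were ELOVL2 and SCD. Over all genes 1064 rather than 796 were then called in OE against WT. With any 1 library left out, 1660 to 2220 genes were called in OE against KD and 1032 to 1557 in KD against WT. The shares above are those of the fit with all libraries. With library sizes alone in place of TMM, 56.9% rather than 42.6% of the genes called in OE against WT were higher, and 60.8% rather than 42.4% in KD against WT. That scaling moved the median of all genes by at most 0.03.

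Levels of different genes were compared per exon length (RPKM). In WT, SCD stood highest at 236 ± 10.6 RPKM, followed by ELOVL5 at 60.6 ± 1.23 and FADS2 at 49.1 ± 2.97 (SD, n = 4). FASN had 34.0 ± 0.907 RPKM, ELOVL1 30.1 ± 0.779 and FADS1 29.8 ± 1.16. The last pair did not differ beyond their spread. ELOVL4 and ELOVL7, both at 12.1 RPKM, were also indistinguishable, ELOVL6 followed at 6.96 ± 0.389, and ELOVL2 was lowest at 1.53 ± 0.251 RPKM. ELOVL2 was lowest in the engineered lines as well, at 0.623 ± 0.154 RPKM in OE and 0.295 ± 0.0227 RPKM in KD, and SCD highest, at 306 ± 2.56 RPKM in OE and 264 ± 8.85 RPKM in KD. FADS1 had a higher mean than ELOVL1 in OE (33.8 against 29.9 RPKM) and a lower one in KD (30.0 against 33.0 RPKM). The middle of the order depends on the length used. With the longest annotated transcript in place of all exons, FADS2 (113 RPKM over all libraries) stood above ELOVL5 (73.3) and FADS1 (70.5). FADS1 then also stood above ELOVL1 in KD (67.8 against 50.9 RPKM) and in WT (67.4 against 46.4 RPKM).

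**Figure D3:**
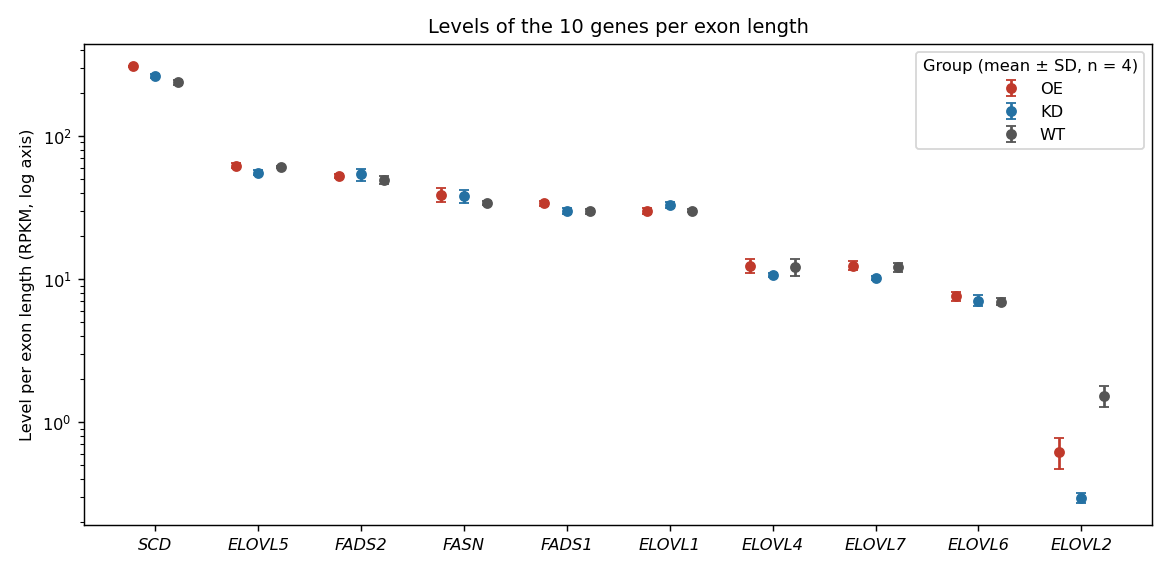
Mean level per exon length (RPKM, log axis) of each gene in OE, KD and WT, with bars of 1 SD (n = 4), ordered by level. SCD lies above 200 RPKM and ELOVL2 below 2 RPKM in all 3 groups.

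The genes whose log2 CPM followed ELOVL2 most closely over the 12 libraries were sought among the 12674 protein-coding genes that averaged 0 or more on the log2 CPM scale. They included SPOCK1 (Pearson r = 0.97, Spearman rho = 0.94), RBPMS (0.96 and 0.91), DOCK8 (0.96 and 0.97), DAB2 (0.95 and 0.89) and LAMC1 (0.95 and 0.86). The points share their groups, so these values describe mainly the order of the 3 groups. SPOCK1, for a testican proteoglycan of the matrix, averaged 347 ± 11.2 CPM in OE, 301 ± 9.15 CPM in KD and 429 ± 9.73 CPM in WT. LAMC1, for a laminin chain, averaged 344 ± 18.6 CPM in OE, 312 ± 12.9 CPM in KD and 470 ± 27.6 CPM in WT. DOCK8, for an activator of small GTPases, averaged 174 ± 7.32 CPM in OE, 147 ± 5.37 CPM in KD and 192 ± 10.8 CPM in WT. Their ranges were far narrower than that of ELOVL2, though each had the same order of group means.

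The genes running most opposite to ELOVL2 were STK35 (r = -0.95, rho = -0.94), SNX1 (-0.95 and -0.96) and TRMT6 (-0.95 and -0.95). TRMT6, for a subunit of a tRNA methyltransferase, averaged 43.0 ± 0.518 CPM in OE, 53.8 ± 2.06 CPM in KD and 38.2 ± 2.12 CPM in WT. Of the other 9 genes of the set, ELOVL7 (r = 0.63) and ELOVL5 (r = 0.60) were nearest to ELOVL2 over the same 12 libraries, and FADS2 (r = -0.58) and ELOVL1 (r = -0.54) the most opposite. The genes named above were picked as the extremes of 12674 ranked genes. That the 9 fell short of them is therefore no finding about the set.

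**Figure D4:**
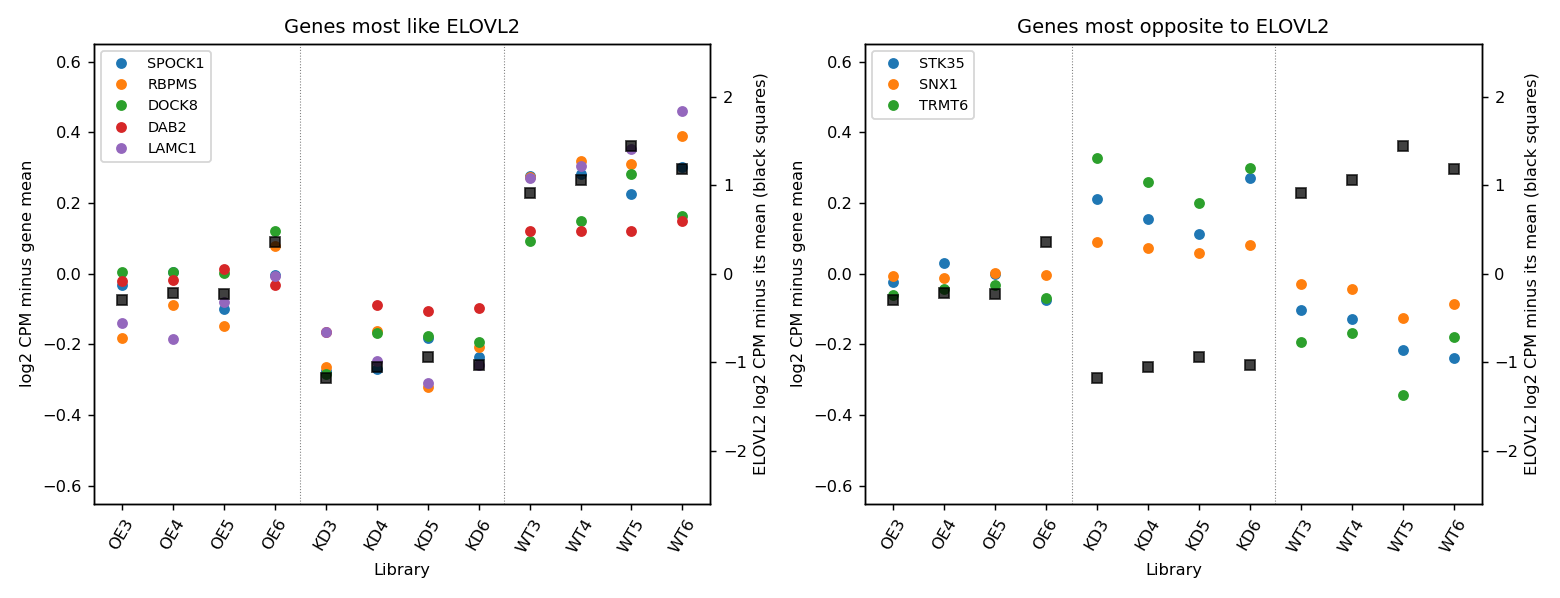
Log2 CPM minus the mean over libraries of 5 of the 6 genes most like ELOVL2 (left panel) and the 3 most opposite (right panel) in each of the 12 libraries, with ELOVL2 as black squares on its own, wider axis at the right. In the left panel the points are high in WT and low in KD, and in the right panel the coloured points run the other way.

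The next list held close relatives and partners of the elongation and desaturation enzymes. Of 13 tested genes out of 16 listed, 3 were called higher and 0 lower in OE against KD (1 lower at an unadjusted p under 0.05 in edgeR), 1 higher in OE against WT and 2 lower in KD against WT. These were 23.1%, 7.69% and 15.4% of the list, beside 13.8%, 5.00% and 9.06% of all tested genes. The call in OE against WT, of CYB5B, a cytochrome b5, was lost under 8 of the 21 alternatives. HACD3, a dehydratase of the elongation cycle, rose to 370 ± 6.84 CPM in OE, against 324 ± 9.63 CPM in KD (log2 0.19 ± 0.04, edgeR, adjusted p = 0.000315). SCD5, a further stearoyl-CoA desaturase, had 63.5 ± 3.63 CPM in OE, 54.0 ± 1.86 CPM in KD and 63.9 ± 2.27 CPM in WT. It was higher in OE than in KD by 0.24 ± 0.07 (edgeR, adjusted p = 0.012, lost without OE replicate 4) and fell by 0.24 ± 0.07 in KD against WT (edgeR, adjusted p = 0.0136, lost without WT replicate 6), while SCD was higher in KD than in WT. FADS3, a relative of FADS1 and FADS2, fell by 0.28 ± 0.08 in KD against WT (edgeR, adjusted p = 0.0253), a call lost under 4 of the 21 alternatives. ELOVL3, an elongase of saturated chains, averaged 12.1 ± 1.92 CPM in OE, 8.45 ± 1.46 CPM in KD and 8.88 ± 2.04 CPM in WT. Its difference between OE and KD (log2 0.51 ± 0.16, edgeR, adjusted p = 0.0242) was lost without KD replicate 3 or 5 or OE replicate 3 or 5, and the groups overlapped.

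Among genes that supply acetyl and malonyl units and NADPH, 3 of 9 rose in KD against WT. In that comparison 0 fell, also at an unadjusted p under 0.05 in edgeR. The 3 were 33.3% of the list, beside 9.06% of all tested genes called. Of the 3, ACLY, which makes acetyl-CoA from citrate, was lost under 6 of the 21 alternatives (edgeR, adjusted p = 0.0286, or 0.141 without KD replicate 3). ACSS2, which makes acetyl-CoA from acetate, rose by 0.22 ± 0.06 in KD against WT (edgeR, adjusted p = 0.00845, lost without WT replicate 6). ACACB, an acetyl-CoA carboxylase, was 0.34 ± 0.07 higher in OE than in KD (edgeR, adjusted p = 0.000841), and the mitochondrial citrate carrier SLC25A1 fell by 0.22 ± 0.05 in the same comparison (edgeR, adjusted p = 0.00322). ACACA, the carboxylase that feeds FASN, was not called in any comparison.

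Of 17 tested genes of SREBP, LXR, PPAR and ChREBP control, which set the transcription of these enzymes in many tissues, 2 were higher and 2 lower in OE against KD, 1 higher in OE against WT and 3 higher in KD against WT. These were 23.5%, 5.88% and 17.6% of the list, beside 13.8%, 5.00% and 9.06% of all tested genes. Of the 3 in KD against WT, the call of SREBF2 was lost under 13 of the 21 alternatives (edgeR, adjusted p = 0.0467, or 0.1995 without KD replicate 3). SREBF1, for the main activator of fatty acid synthesis genes, averaged 151 ± 14.5 CPM in OE, 199 ± 16.0 CPM in KD and 155 ± 10.4 CPM in WT. It rose by 0.36 ± 0.06 in KD against WT (edgeR, adjusted p = 9.19e-05) and fell by 0.40 ± 0.06 in OE against KD (edgeR, adjusted p = 1.54e-05). SREBF1 was thus highest in KD, while SCD was highest in OE. INSIG1, a sterol-responsive brake on SREBP processing, averaged 499.7 ± 13.1 CPM in OE, 414 ± 11.2 CPM in KD and 390 ± 10.2 CPM in WT, the same order of group means as SCD, with KD against WT not called (edgeR, adjusted p = 0.167). It was 0.27 ± 0.04 higher in OE than in KD (edgeR, adjusted p = 2.92e-07). NR1H2, for the receptor LXR beta, rose by 0.34 ± 0.06 in KD against WT (edgeR, adjusted p = 0.00012), and PPARA was 0.49 ± 0.10 higher in OE than in KD (edgeR, adjusted p = 0.000249).

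Among 14 tested genes of fatty acid uptake, binding and activation, 3 (21.4%) were called in each comparison. Of all tested genes 13.8% were called in OE against KD, 5.00% in OE against WT and 9.06% in KD against WT. Not all of the list calls held. ACSL4 in OE against KD was lost under 15 of the 21 alternatives (edgeR, adjusted p = 0.0971 without KD replicate 3). SLC27A4, lower in KD against WT, was lost under 9 of them, and FABP6, lower in OE against KD, under 3 of 20. CD36, a fatty acid receptor, averaged 68.1 ± 5.27 CPM in OE, 128 ± 4.42 CPM in KD and 56.6 ± 3.01 CPM in WT, and it fell by 0.91 ± 0.06 on the log2 scale in OE against KD (edgeR, adjusted p = 3.47e-17). LPL, for lipoprotein lipase, was low like ELOVL2 and reduced in both engineered lines, with 2.65 ± 0.315 CPM in OE, 2.44 ± 0.698 CPM in KD and 6.28 ± 1.48 CPM in WT. It fell by 1.25 ± 0.25 in OE against WT (edgeR, adjusted p = 0.000547), and OE and KD overlapped (log2 0.12 ± 0.27, edgeR, adjusted p = 0.841). ACSL4, which activates arachidonic acid, rose by 0.33 ± 0.06 in OE against WT (edgeR, adjusted p = 0.000289).

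Of 20 tested genes that place acyl chains in glycerolipids or release them, 5 were higher and 0 lower in OE against KD (1 lower at an unadjusted p under 0.05 in edgeR). In OE against WT 1 was higher and 1 lower, and in KD against WT 1 was higher and 3 lower. The shares called were 25%, 10% and 20% in that order, beside 13.8%, 5.00% and 9.06% of all tested genes. GPAM, the first enzyme of glycerolipid synthesis in mitochondria, averaged 70.2 ± 1.73 CPM in OE, 54.4 ± 5.14 CPM in KD and 71.5 ± 4.08 CPM in WT. It was 0.37 ± 0.07 higher in OE than in KD (edgeR, adjusted p = 8.40e-05) and fell by 0.40 ± 0.07 in KD against WT (edgeR, adjusted p = 3.86e-05). LPIN1, a phosphatidate phosphatase, was higher than WT in both engineered lines, by 0.31 ± 0.05 in OE (edgeR, adjusted p = 9.20e-05) and by 0.25 ± 0.05 in KD (edgeR, adjusted p = 0.00127). LPCAT1, a lysophospholipid acyltransferase, fell by 0.33 ± 0.05 in KD against WT (edgeR, adjusted p = 1.10e-05).

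Of the beta-oxidation genes, 3 of 12 peroxisomal (25%) and 1 of 17 mitochondrial (5.88%) were called in OE against KD, beside 13.8% of all tested genes. In OE against WT 1 peroxisomal gene (8.33%) and 0 mitochondrial genes were called, beside 5.00% of all. In KD against WT 0 peroxisomal genes and 1 mitochondrial gene (5.88%) were called, beside 9.06% of all. DESeq2 and limma-voom called 0 in the same places, and at an unadjusted p under 0.05 edgeR had 2 mitochondrial genes higher and 3 lower in OE against WT, and 1 peroxisomal gene higher and 1 lower in KD against WT. DECR1, needed to oxidise unsaturated chains in mitochondria, fell by 0.33 ± 0.07 in KD against WT (edgeR, adjusted p = 0.00135). PTGS1, a cyclooxygenase that uses arachidonic acid, was the 1 called gene among 8 tested of eicosanoid synthesis in either comparison of OE. That was 12.5% of the list, beside 13.8% of all tested genes in OE against KD and 5.00% in OE against WT. PTGS1 averaged 20.4 ± 0.879 CPM in OE, 13.9 ± 1.18 CPM in KD and 13.9 ± 1.97 CPM in WT. In OE it rose by 0.55 ± 0.12 against WT (edgeR, adjusted p = 0.00241).

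Of 7 tested genes of mitochondrial fatty acid synthesis 1 was called, in OE against KD only (14.3%, beside 13.8% of all tested genes). This was ACSF3, which activates malonate there, with 24.4 ± 1.60 CPM in OE and 31.9 ± 3.97 CPM in KD (log2 -0.39 ± 0.11, edgeR, adjusted p = 0.00775, or 0.0507 without KD replicate 3). Very long chain ceramide synthesis uses products of ELOVL1 among others. Of its 8 tested genes 1 was higher in OE against KD (12.5%, beside 13.8% of all tested genes). This was SPTLC2, a subunit of serine palmitoyltransferase, at 0.33 ± 0.09 (edgeR, adjusted p = 0.00719). None of the 8 was called in OE against WT by edgeR, DESeq2 or limma-voom, with 4 higher and 1 lower at an unadjusted p under 0.05 in edgeR. In KD against WT CERS6 was higher, a call lost under 11 of the 21 alternatives, and SPTLC1 fell by 0.14 ± 0.04 (edgeR, adjusted p = 0.0174, lost under 4 alternatives). Together they were 25% of the list, beside 9.06% of all tested genes. Over all 10 lists, 125 of 145 genes were tested. In OE against KD 25 of them were called, 17 higher and 8 lower, and the median of their log2 fold changes was 0.04. In OE against WT 10 were called, 7 higher and 3 lower, with a median of 0.01, and in KD against WT 18, 9 in each direction, with a median of -0.01. The shares called were 20%, 8% and 14.4% in that order, beside 13.8%, 5.00% and 9.06% of all tested genes. With any 1 library left out, 1660 to 2220 genes were called over all in OE against KD. In OE against WT that range was 563 to 1064, and in KD against WT 1032 to 1557. Without KD replicate 3 the calls in the lists were 21, 12 and 17 in the same order, with 1064 rather than 796 genes called over all in OE against WT. Of the list calls named above, those of ELOVL3, ACSF3 and ACSL4 in OE against KD were then lost. Those of ACLY, SREBF2 and CERS6 in KD against WT were lost as well.

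**Figure D5:**
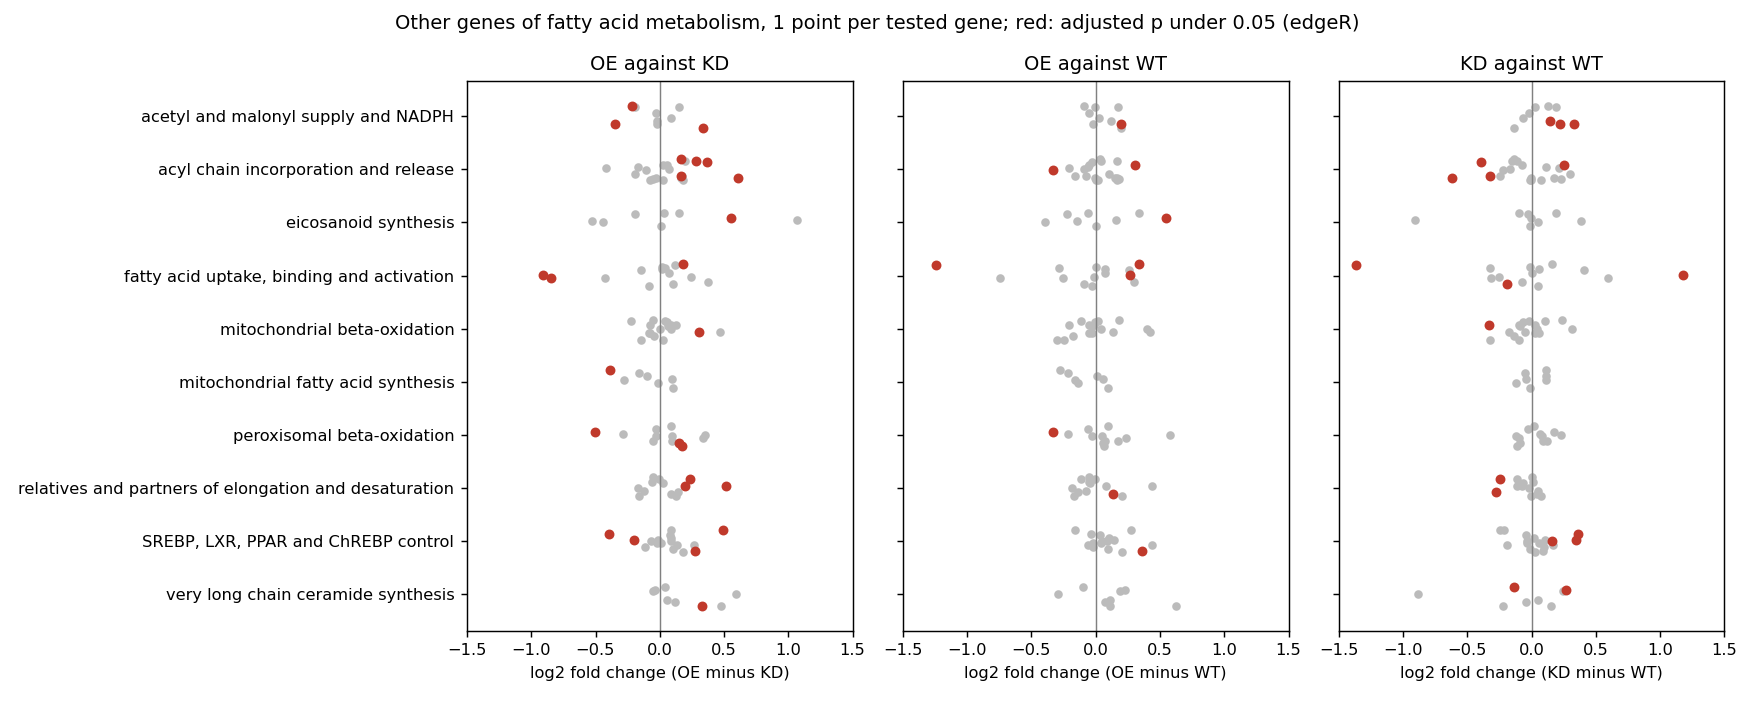
Log2 fold change (horizontal axis) of each tested gene of the 10 lists in OE against KD, OE against WT and KD against WT; each point is 1 gene and red points had an adjusted p under 0.05 in edgeR. Most points lie within 0.5 of 0, and CD36 and LPL, both in the uptake list, lie farthest out among the called genes, at 1.18 and -1.37 in KD against WT.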

How the data were processed

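Raw counts were deposited for 12 libraries, as whole numbers for each Ensembl gene. Per the submitters' processing notes, FastQC, HISAT2 1.03, Subread featureCounts and DESeq2 were used on GRCh38. No source used here gives the strand setting or the handling of reads with several matches. The table lists 60671 genes. 1 gene with blank counts was left out, and 3 lines that name no gene stayed out of library sizes and tests. Library totals of 9303266 to 13797397 counts set the precision, which is lowest for ELOVL2 (14 to 89 counts a library).

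Genes were tested in R 4.3.3 with edgeR 4.0.16: a filter by filterByExpr on groups (counts of at least 10, totals of at least 15), TMM scaling, estimateDisp, and glmQLFit with robust estimates over the 12 libraries together (9 residual degrees of freedom). P-values were adjusted by Benjamini and Hochberg over 15916 genes, and an adjusted p under 0.05 was called. Standard errors were derived from each log2 fold change and its F statistic. RPKM uses the union of GENCODE 29 exons. The test was checked on simulated counts. Alternatives were RLE size factors, library sizes alone, no filter, a minimum count of 50, a replicate block, a fit of only the 2 groups compared, the genes of the mitochondrial genome left out, DESeq2 1.42.0, limma-voom 3.58.1, the longest transcript for RPKM, and leaving out each library.

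The 10 genes were set by symbol, and these genes, the pathway lists and the tests were chosen with earlier results of these data known. Named beside them are DLK1, from each list up to 4 called genes per comparison with the smallest adjusted p, and the 6 most and 3 least ELOVL2-like genes by Pearson correlation of log2 CPM (prior count 2). Some genes that this rule picks are not reported here.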

Additional observations from a re-analysis of the deposited data

Results flagged for a closer look

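ELOVL2 in OE replicate 6 stood far from the other OE libraries, at 3.41 CPM beside 2.10, 2.21 and 2.24 CPM. Its gap to the nearest of them was 0.894 of the range of the group, above the 95% critical value of Dixon's test for 4 libraries. It still lay above every KD library and below every WT library. This was the only such library among 30 gene and group combinations tested, and chance marks about 1 in 20.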

How the results depend on the processing

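Of the 21 alternatives, 12 left out 1 library each. ELOVL2 was called in all of them in both comparisons with WT (log2 -2.44 to -2.25 in KD and -1.48 to -1.17 in OE when a library was left out), and in OE against KD in 20 (0.89 to 1.15). The filter at a minimum count of 50 kept ELOVL2 through its WT libraries alone. SCD in all 3 comparisons and FADS1 in both of OE stayed called. In KD against WT, 4 of the 10 genes were called, but 2 with library sizes alone, 3 with limma-voom, and 2 to 4 when a library was left out, the 2 being found without WT replicate 3, KD replicate 3 or KD replicate 6. Over all genes, 1032 to 1557 were called in KD against WT when a library was left out, beside 1442 with all libraries. Fitting only the 2 groups compared raised the genes called in OE against WT to 1236 and the listed pathway genes to 16, beside 796 and 10. The cause was not tested.

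Directions turned only for differences that were not called. With library sizes alone ELOVL1 in OE against WT was 0.0125. With 1 library left out, log2 ranges were -0.0372 to 0.0618 for ELOVL6 and -0.0280 to 0.0297 for FADS1 in KD against WT, -0.0358 to 0.0100 for ELOVL1 and -0.0436 to 0.0992 for ELOVL4 in OE against WT, and -0.0971 to 0.0104 for FADS2 and -0.0391 to 0.0935 for FASN in OE against KD. FASN was called higher than WT under 2 alternatives in each line: in OE without the filter on low counts and without OE replicate 4 (edgeR, adjusted p = 0.0045 and 0.0130), and in KD without the filter and with only the 2 groups compared (0.0142 and 0.0490). FADS2 in KD against WT was called without the filter (0.0393) and without KD replicate 5.

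Same-numbered replicates deviated together with correlations of -0.033 to 0.071. Among WT libraries, the best match had the same number for KD replicates 3, 5 and 6 and for OE replicates 3 and 5. In OE against KD the best match never had the same number. Correlations this weak cannot tell whether the numbers pair libraries. With the replicate number as a block, 2082, 735 and 1327 genes were called in OE against KD, OE against WT and KD against WT, and 5, 3 and 3 of the 10 genes. ELOVL5 in KD against WT was then not called (log2 -0.14, edgeR, adjusted p = 0.0689). Depth limits ELOVL2 most: KD libraries held 14 to 16 of its counts.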
